A study of Rattus norvegicus with 12 samples.

Results

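The potassium channel genes of the rat were followed in the left ventricle and in whole blood after oral amiodarone. They were taken as the array probes whose gene name begins with Kcn, together with those for Abcc8 and Abcc9, the sulfonylurea receptors that complete the ATP sensitive potassium channel. This rule uses names only and gave 106 probes with 91 gene names among 41012 non-control probes. A probe was measured in a tissue if all 3 arrays of 1 of its groups, or of both, read it as well above background. By this test 33 probes (30 genes) were measured in heart and 25 probes (21 genes) in blood. There were 16 probes measured in both tissues, 17 in heart and not in blood, 9 in blood and not in heart, and 64 in neither. Only the 42 measured probes are described by value.

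Male Sprague-Dawley rats of 290 to 320 g, 10 weeks old when dosing began, received amiodarone by mouth at 300 mg/kg per day for 10 days. Control rats received the vehicle, 1% methylcellulose. The sample labels give an age of 11 weeks. RNA was pooled, and each tissue had 3 amiodarone pools and 3 vehicle pools, with 1 single-colour Agilent array of 60-base probes per pool, 12 arrays in all. The labels do not list the rats of a pool, so the p-values measure the spread between pools, which may be technical. Levels are given as log2 of the processed signal relative to the 75th percentile of the same array, and differences as amiodarone minus vehicle on that log2 scale. A probe counted as changed at an adjusted p below 0.05 over all probes tested in the tissue.

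Potassium channels let potassium leave the cell and so set the resting potential and end the action potential. In ventricular muscle, Kv4 channels carry the fast transient outward current, the hERG (Kcnh2) and KvLQT (Kcnq1) channels carry the delayed rectifier currents, and inward rectifiers hold the membrane near rest. Amiodarone prolongs the action potential, largely through block of potassium currents at the protein level, while arrays report RNA.

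Heart arrays were of like brightness in both groups: the 75th percentile averaged 143 (SD 30.9, n = 3) for vehicle pools and 130 (SD 28.2, n = 3) for amiodarone pools. Blood arrays were not: it averaged 24.0 (SD 2.80, n = 3) for vehicle pools and 73.8 (SD 15.6, n = 3) for amiodarone pools. In the heart all 12 cardiomyocyte markers were measured and none passed the threshold. The largest difference among them was 0.79 for Myh7 (adjusted p = 0.0515 by limma). In blood 2 of these 12 were measured, and all 8 T cell and all 8 neutrophil markers were. Replicates 1 and 2 of both groups shared a slide in each tissue, and replicate 3 of both groups shared another.

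In the left ventricle, 1 potassium channel probe rose and 3 fell. Kcnj5, a subunit of the G protein gated channel that acetylcholine opens, rose. Kcnj14, an inward rectifier, and Kcnk2, the stretch sensitive 2-pore channel TREK-1, fell, and so by its fitted value did Kcne1l, a small accessory subunit now named Kcne5, which 1 of 3 amiodarone arrays measured. These 4 are 12.1% of the 33 probes tested, where 7.41% of all 20503 heart probes were called (3.65% higher and 3.76% lower). Vehicle and amiodarone pools did not overlap at 13 of the 33 probes (39.4%), against 31.6% of all probes, and 13 had an unadjusted p below 0.05 (39.4%, against 24.0%). The median difference of the 33 was -0.09, against 0.01 over all probes. The count moved with single pools: leaving out vehicle pool 1, 2 or 3 brought it to 1, the Kcnj5 probe, and without amiodarone pool 2 it was 2. Without scaling the arrays 2 probes were called, both lower, against 3.97% of all probes. With array median scaling 2 were higher and 3 lower, against 8.06%. Where a probe had to be well above background on all 6 arrays, 3 of 30 were called, Kcnj5, Kcnj14 and Kcnk2, against 7.6%.

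**Figure D1:**
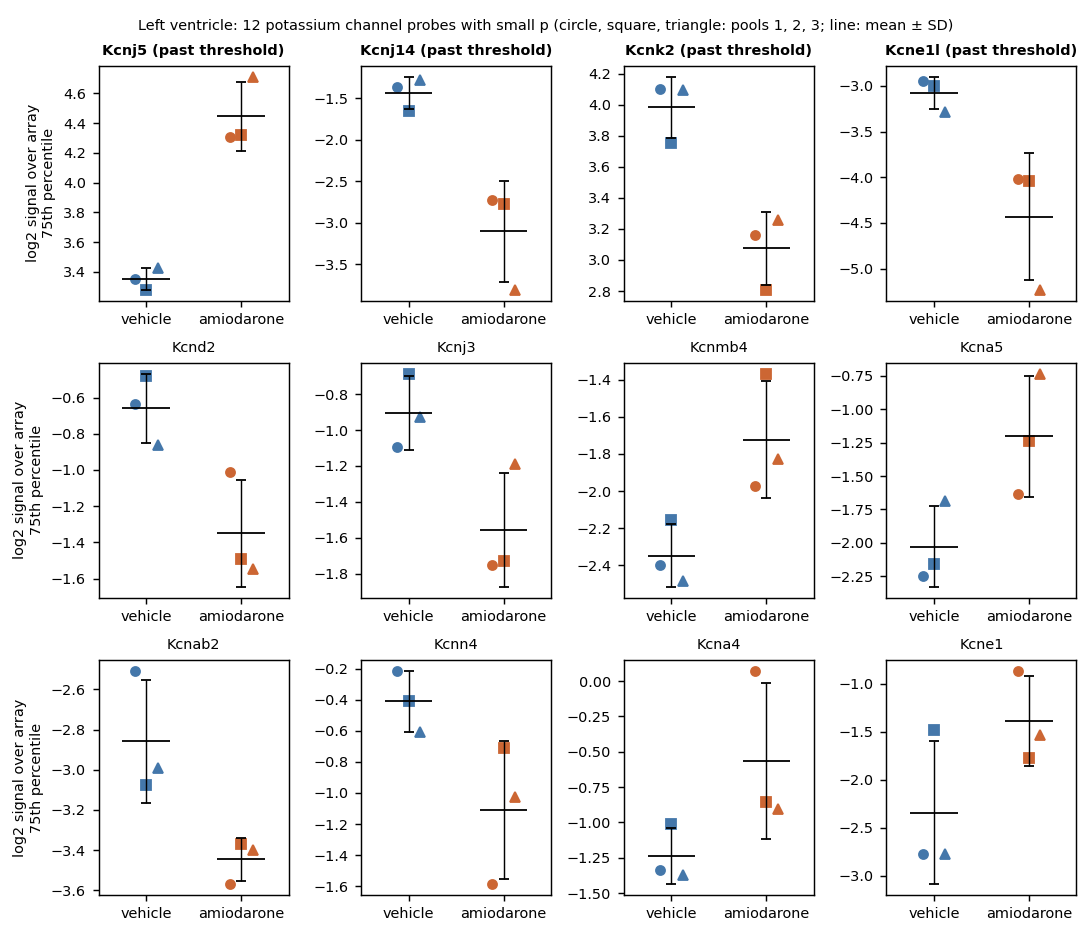
Level of 12 potassium channel probes with small p in the left ventricle, 1 panel per probe, each with its own vertical axis in log2 signal over the array's 75th percentile. Points are the 3 pools of each group, and lines with bars are mean ± SD. Bold titles mark the 4 probes past the threshold; vehicle and amiodarone pools overlap at Kcne1 and at none of the others drawn.

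Kcnj5 stood at 3.35, 3.28 and 3.42 in the vehicle pools and at 4.31, 4.32 and 4.71 in the amiodarone pools. All 3 amiodarone pools lay above all 3 vehicle pools. The difference was 1.10 (SE 0.16), a 2.14-fold rise, with an adjusted p of 0.0093 in the limma fit. It was 1.00 on the slide with 4 heart arrays and 1.29 on the other slide. Kcnj5 was called whichever of the 6 pools was left out. Without scaling the difference was 0.97 with an adjusted p of 0.137. The probe lies at chr8:32080815-32080874 (minus strand) in rat build rn4.

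Kcnj3, the partner subunit of Kcnj5 in the atrial acetylcholine channel, did not pass. It read -1.10, -0.69 and -0.93 in vehicle and -1.75, -1.73 and -1.19 in amiodarone pools, so the groups did not overlap. The difference was -0.65 (SE 0.20, adjusted p = 0.102 by limma), opposite in sign to that of Kcnj5. The remaining family members, Kcnj6 and Kcnj9, were not measured in either tissue. Among genes that act on this channel, the muscarinic receptor Chrm2 differed by -0.07 (adjusted p = 0.839) and the adenosine receptor Adora1 by 0.76 (adjusted p = 0.0513), both by limma. Of 5 atrial myocyte markers measured in the ventricle none passed, and their summed level spanned 879 to 966 in vehicle and 824 to 1807 in amiodarone pools. Amiodarone pool 3 stood apart at 3 of them: Sln read 6.05 there and -1.27 to 0.71 on the other arrays, Nppa 8.04 and 2.60 to 5.20, and Myl7 9.37 and 3.83 to 7.54. Kcnj5 was also highest in that pool, and it was called in the fit that left this pool out. No potassium channel probe was called on the slide with 4 heart arrays alone, which lacks pool 3 of both groups. Whether atrial tissue had a part in the Kcnj5 values was not tested.

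The promoter of Kcnj5 is shown because this gene was the member that rose in the ventricle. It covers 250 bases before to 50 after the transcript start in RefSeq build GRCr8, chr8:39011047-39011346 on the minus strand, and capitals mark the GC box (GGGCGG or CCGCCC).

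Kcnj5: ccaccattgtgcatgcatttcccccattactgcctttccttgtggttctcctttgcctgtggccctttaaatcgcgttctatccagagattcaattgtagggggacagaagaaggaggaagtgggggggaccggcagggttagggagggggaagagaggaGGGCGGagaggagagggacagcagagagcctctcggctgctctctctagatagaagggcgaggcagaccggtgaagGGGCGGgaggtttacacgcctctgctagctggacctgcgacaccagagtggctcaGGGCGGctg

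The GC box was found 3 times there on either strand. No GC box was found in the promoters of Kcnj14, Kcne5 or either start of Kcnk2. The letters occurred in 8 of 17 heart-measured potassium channel genes with a promoter in the table (47.1%) and in 33.1% of all 33469 promoters. The shorter site of the glucocorticoid receptor (AGAACA or TGTTCT) occurred in 2 of the 17, Kcnk2 among them, against 20.7% of all promoters. The TATA box (TATAAA or TTTATA) occurred in none of the 17, against 14.2%. A potassium channel gene counted if any of its starts held the letters, while the share of all promoters counted each start singly. The shares are therefore not like for like. These matches describe the letters in the window only.

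Among the other inward rectifiers, Kcnj14 read -1.36, -1.65 and -1.28 in vehicle and -2.73, -2.77 and -3.81 in amiodarone pools. Every amiodarone pool was lower than every vehicle pool, and pool 3 was the lowest. Its value in pool 3 lay next to the dimmest signal counted as well above background on that array, also -3.81. The difference was -1.67 (SE 0.30), a 3.18-fold fall, with an adjusted p of 0.0183 in the limma fit. It was -1.24 on the slide with 4 heart arrays and -2.53 on the other, which holds pool 3. It stayed past the threshold for 3 of the 6 pools left out in turn, and with normexp background correction it was -0.53 (adjusted p = 0.0234). The probe lies at chr1:96294062-96294121 (minus strand, rn4). Kcnj12, a strong inward rectifier of muscle, differed by -0.12 (SE 0.14, adjusted p = 0.659 by limma) with overlapping groups. Kcnj2, the main subunit of the resting inward rectifier, was not well above background on all arrays of either heart group, so no value is given.

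Kcnk2 read 4.10, 3.75 and 4.09 in vehicle and 3.16, 2.81 and 3.26 in amiodarone pools. The lowest vehicle pool lay above the highest amiodarone pool. The difference was -0.91 (SE 0.18), a 1.88-fold fall, with an adjusted p of 0.0266 in the limma fit. It was -0.94 on the slide with 4 heart arrays and -0.84 on the other, and it stayed past the threshold for 2 of the 6 pools left out in turn. The probe lies at chr13:105376012-105376071 (minus strand, rn4). Among the other 2-pore channels, which carry background potassium current, none passed. Kcnk3 (TASK-1) differed by 0.58 (adjusted p = 0.274 by limma), and the 2 probes of Kcnk6 by -0.55 and -0.21. Kcnk5, Kcnk9 and Kcnk13 differed by -0.16, -0.14 and 0.16.

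Kcne1l read -2.95, -3.00 and -3.28 in vehicle and -4.02, -4.05 and -5.23 in amiodarone pools. The groups did not overlap, but 1 of the 3 amiodarone arrays measured the probe well above background, so it entered the test through the vehicle group. The fitted difference was -1.36 (SE 0.33, adjusted p = 0.0495 by limma), and with normexp it was -0.18 (adjusted p = 0.536). It passed for 2 of the 6 pools left out in turn. The probe lies at chrX:36245093-36245152 (plus strand, rn4). Kcne1, the accessory subunit that slows KvLQT channels, read -2.77, -1.48 and -2.78 in vehicle and -0.86, -1.78 and -1.53 in amiodarone pools. Its groups overlapped, and the difference was 0.96 (SE 0.39, adjusted p = 0.191 by limma).

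Neither pore subunit of the delayed rectifier currents changed. Kcnh2 read 0.83, 0.24 and 0.06 in vehicle and 0.26, 0.69 and -0.08 in amiodarone pools. Both groups covered much the same range, and the difference was -0.09 (SE 0.27, adjusted p = 0.870 by limma). Kcnq1 read 0.08, 0.20 and 0.52 in vehicle and -0.63, 0.62 and 0.85 in amiodarone pools. Here amiodarone pool 1 lay below every other array, and the difference was 0.01 (SE 0.37, adjusted p = 0.988 by limma). Kcne2, Kcne3 and Kcne4 were not measured. With these standard errors, neither difference is measured closely enough to be called 0.

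Of the transient outward genes, 4 were measured and none passed. Kcnd2, which encodes a Kv4 pore subunit, read -0.63, -0.48 and -0.86 in vehicle and -1.01, -1.49 and -1.55 in amiodarone pools. The pools of each group stayed apart, and the difference was -0.69 (SE 0.19, adjusted p = 0.0775 by limma), the smallest p among the probes that missed the threshold. Kcna4, the pore subunit of the slowly recovering transient outward current, read -1.34, -1.01 and -1.37 in vehicle and 0.07, -0.86 and -0.90 in amiodarone pools. No vehicle pool overlapped an amiodarone pool, and the difference was 0.68 (SE 0.28, adjusted p = 0.189 by limma). Kcnip2, the calcium binding subunit that brings Kv4 channels to the membrane, differed by 0.33 (SE 0.33) and Kcnd1 by -0.33 (SE 0.20). Kcnd3, the other Kv4 gene, had 2 probes that were not measured in either tissue, and both lie on another chromosome in rn4 than the gene does in GRCr8.

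Kcna5, the ultrarapid delayed rectifier, read -2.24, -2.16 and -1.68 in vehicle and -1.63, -1.24 and -0.74 in amiodarone pools. Each amiodarone pool was above all vehicle pools, by a small margin for pool 1. The difference was 0.82 (SE 0.26, adjusted p = 0.106 by limma), and with the slide as a block it passed (adjusted p = 0.0339). Kcns3, a silent subunit, differed by 0.13 with overlapping groups.

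The ATP sensitive channel, which opens when cellular ATP runs low, was measured with all 4 subunits. Kcnj8, the pore subunit common in vascular smooth muscle, read 4.38, 4.41 and 4.29 in vehicle and 4.71, 4.75 and 4.52 in amiodarone pools. Both groups kept apart, and the difference was 0.30 (SE 0.14, adjusted p = 0.238 by limma). Kcnj11, the ventricular pore subunit, differed by 0.10 (SE 0.17), Abcc8 by -0.08 (SE 0.23) and Abcc9 by -0.02 (SE 0.16), with overlapping groups at all 3. The signs of these 3, of Kcnh2 and of Kcnq1 changed under at least 1 other processing or left-out pool.

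Of the calcium activated channels, Kcnmb4, an accessory subunit of the large conductance channel, read -2.40, -2.16 and -2.48 in vehicle and -1.97, -1.37 and -1.83 in amiodarone pools. Vehicle and amiodarone pools were separate, and the difference was 0.63 (SE 0.20, adjusted p = 0.104 by limma); it passed with array median scaling (adjusted p = 0.0480). Kcnn4, the intermediate conductance channel known from red cells and lymphocytes, read -0.21, -0.41 and -0.61 in vehicle and -1.59, -0.71 and -1.03 in amiodarone pools. Again the ranges were separate, and the difference was -0.70 (SE 0.24, adjusted p = 0.130 by limma). Kcnab2, a beta subunit, differed by -0.59 (SE 0.18, adjusted p = 0.106 by limma), and 1 of 3 amiodarone arrays measured it.

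**Figure D2:**
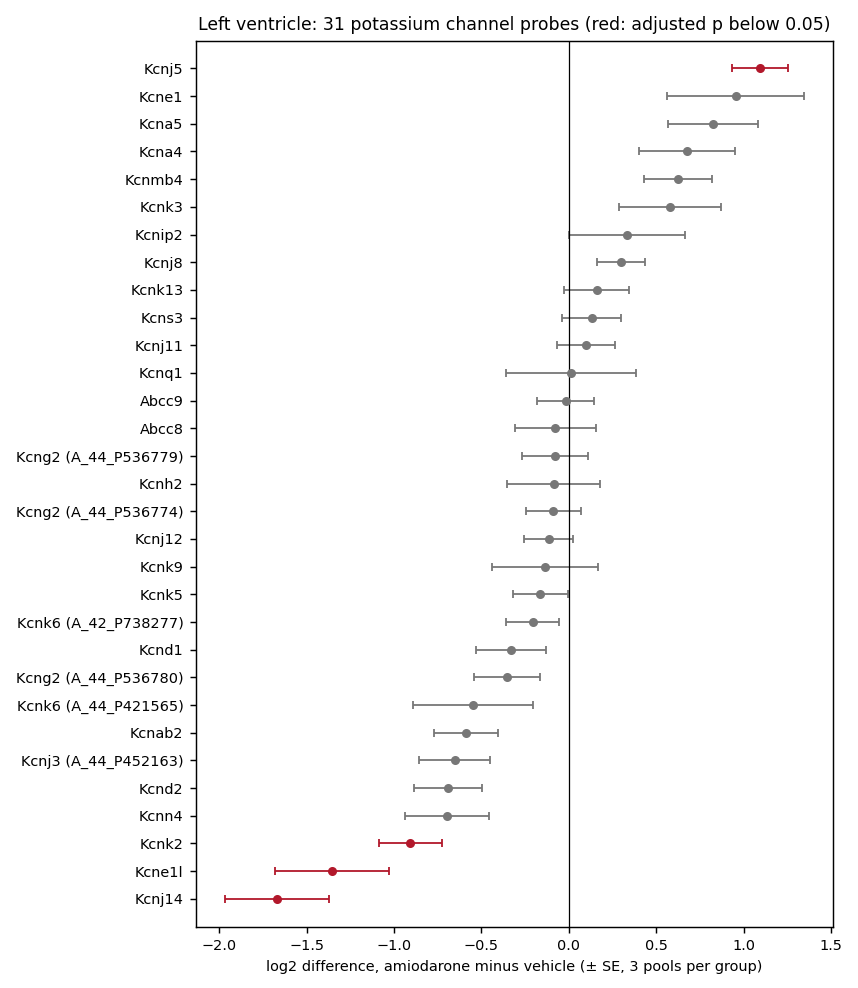
Log2 difference, amiodarone minus vehicle, of 31 of the potassium channel probes measured in the left ventricle, with the standard error of the limma fit as bars. Red points are the 4 probes past the threshold, from -1.67 for Kcnj14 to 1.10 for Kcnj5; the other 27 are grey.

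Markers of other cells moved in the same ventricles, and their part in the channel results was not tested. Red cell markers fell at 5 of 8 (summed level 67.3 to 97.3 in vehicle and 17.6 to 20.8 in amiodarone pools). Fibroblast markers fell at 4 of 7 (286 to 379 and 141 to 191), the matrix genes Col1a1, Col1a2, Col3a1 and Lum. Dcn, Pdgfra and Tcf21 differed by 0.39, 0.46 and -0.08 and did not pass. Dividing cell markers fell at 6 of 6 (5.38 to 5.51 and 1.08 to 1.24). Macrophage markers rose at 2 of 7 (33.6 to 47.5 and 60.1 to 76.7), and neutrophil markers at 2 of the 2 measured (0.31 to 0.48 and 0.99 to 2.06). Of 4 smooth muscle markers measured 1 fell, and Acta2 and Myh11 were not measured. In bulk RNA, fewer cells of a type and less RNA per cell cannot be told apart.

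Genes outside the name rule that bind or regulate these channels were listed with it. Of 31 measured in heart none rose and 3 fell, Fhl2 and Flna among them, with a median of -0.19. Of all heart probes tested, 3.65% were called higher and 3.76% lower. Fhl2, a scaffold that binds the KCNE1 subunit, differed by -0.75 (adjusted p = 0.0250). Flna, the actin crosslinker filamin A, differed by -0.98 (adjusted p = 0.0471). The trafficking and scaffold genes Akap9, Cav3 and Hspa8 differed by -0.04, -0.14 and 0.06. These p-values are limma's.

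In whole blood, 19 of 25 potassium channel probes passed the threshold, 9 higher and 10 lower. This share, 76.0%, stands beside 65.9% of all 18120 blood probes (40.6% higher and 25.4% lower), so most blood probes of any kind were called. Pools of the 2 groups did not overlap at 20 of the 25 (80.0%), against 72.8% of all probes, and 20 had an unadjusted p below 0.05 (80.0%, against 70.4%). The direction of blood values depended on scaling, since the median of all probes was 0.47 after scaling and 2.07 without it. Without scaling 18 potassium channel probes were called, 16 higher and 2 lower, against 78.4% of all probes (76.6% higher and 1.75% lower), with array median scaling 12 and 8, against 71.9%, and by the authors' deposited values 5 were higher and 10 lower, against 54.6%. With normexp background correction 2 were called, both lower, against 7.88% of all probes. Some called probes were well above background in 1 group only. These were Kcna3 A_44_P247900, Kcnmb4, Kcnk13 and Kcnk6 A_44_P421565 with amiodarone, and Kcnj4 with vehicle. Where a probe had to be well above background on all 6 blood arrays, 13 of 16 were called. Of these 6 were higher and 7 lower, against 75.8% of all probes called. Red cell markers fell at 8 of 8 in the same arrays (summed level 11232 to 18456 in vehicle and 2792 to 5115 in amiodarone pools), neutrophil markers rose at 7 of 8, platelet markers at 5 of 6 and T cell markers at 6 of 8. Their part in the channel results was not tested.

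**Figure D3:**
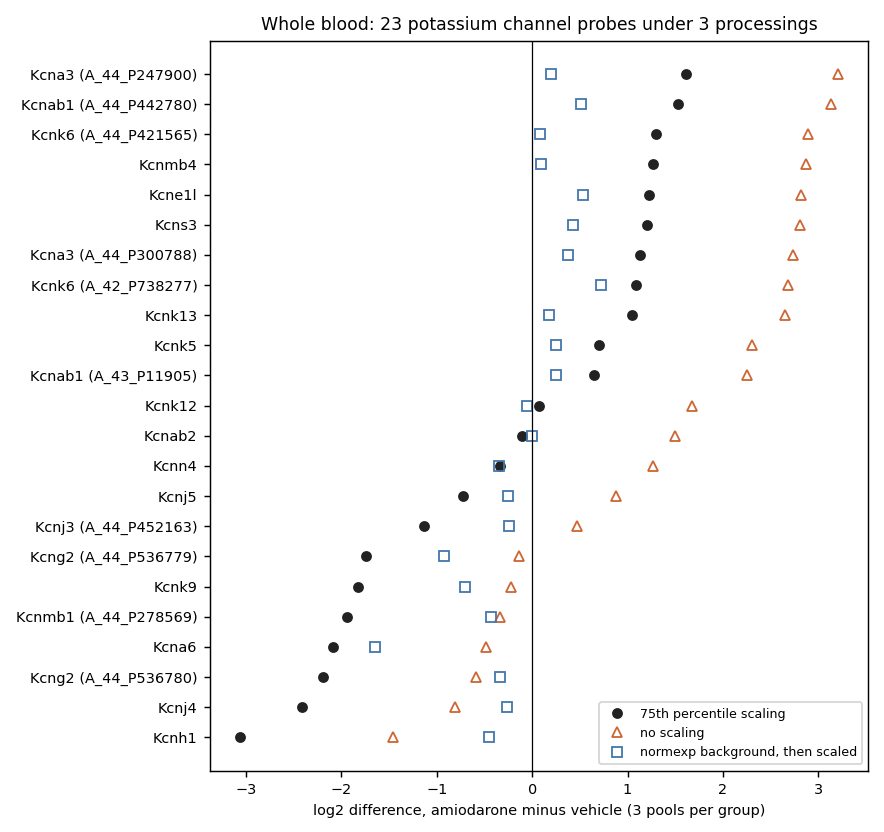
Log2 difference, amiodarone minus vehicle, of 23 of the potassium channel probes measured in whole blood under 3 processings: scaling to the array's 75th percentile (filled circles), no scaling (triangles), and normexp background correction then scaling (squares). The circles run from -3.06 for Kcnh1 to a fitted 1.61 for Kcna3 (A_44_P247900), the triangles lie to their right, and most squares lie closer to 0.

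Kcng2, a silent subunit that modifies other Kv channels, had 3 probes, and their sequences are shown because they disagreed between tissues and settings. The first and second overlap by 20 bases, which capitals mark. They lie on the minus strand at chr18:77190610-77190669, chr18:77190650-77190709 and chr18:77190293-77190352 in rn4, and 71.7%, 71.7% and 73.3% of their bases are G or C.

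A_44_P536779: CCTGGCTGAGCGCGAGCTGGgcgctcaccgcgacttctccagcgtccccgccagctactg
A_44_P536780: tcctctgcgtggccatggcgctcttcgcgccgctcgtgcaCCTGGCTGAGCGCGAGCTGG
A_44_P536774: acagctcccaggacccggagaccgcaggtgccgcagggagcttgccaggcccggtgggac

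In blood, Kcng2 A_44_P536779 read 2.58, 2.66 and 2.55 in vehicle and 0.92, 1.02 and 0.62 in amiodarone pools. All amiodarone pools were lower on this scale, by -1.74 (SE 0.18, adjusted p = 0.0010 by limma). Its unscaled signals overlapped, at 156, 132 and 147 in vehicle and 165, 115 and 118 in amiodarone arrays. The overlapping probe, A_44_P536780, differed by -2.19 (SE 0.20, adjusted p = 0.0010 by limma), and by -0.34 (adjusted p = 0.163) with normexp, where A_44_P536779 was -0.93 (adjusted p = 0.0252). The third probe was not measured in blood. In the ventricle the 3 probes differed by -0.08, -0.35 and -0.09, and none passed. Across all blood probes tested, the median share of G or C was 50% for those that fell and 41.7% for those that rose. It was 45% for those not past the threshold. Among the potassium channel probes the medians, in the same order, were 53.3% (n = 10), 45% (n = 9) and 55% (n = 6). The part of base content in these differences was not tested.

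Of the pore subunits, Kcna6, a Kv1 channel, read 4.47, 4.77 and 4.30 in vehicle and 1.93, 3.07 and 2.27 in amiodarone pools. All amiodarone pools were lower, also in unscaled signal (493 to 582 in vehicle and 333 to 477 in amiodarone). The difference was -2.09 (SE 0.31, adjusted p = 0.0018 by limma), and -0.49 (adjusted p = 0.195) without scaling. Kcnh1, an ether-a-go-go channel that 2 of 3 amiodarone arrays measured, had a fitted difference of -3.06 (SE 0.68, adjusted p = 0.0070 by limma), with signals of 26.8, 25.9 and 31.0 in vehicle and 3.68, 18.7 and 15.1 in amiodarone arrays. Amiodarone pool 1, the lowest, was the array that did not measure it. The difference was -1.46 (adjusted p = 0.0060) without scaling, -0.46 (adjusted p = 0.0731) with normexp, and -3.68 to -2.20 with 1 pool left out.

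Kcna3, the Kv1.3 channel that T cells use, had 2 probes that differed in call. A_44_P300788 read -0.48, -0.26 and 0.37 in vehicle and 1.20, 0.04 and 1.80 in amiodarone pools. The groups overlapped, and the difference was 1.14 (SE 0.45, adjusted p = 0.0574 by limma). A_44_P247900 was not well above background on any vehicle array and was on all 3 amiodarone arrays, which gives at least 1.21-fold higher (adjusted p = 0.0093 by limma). Kcnab1, a Kv1 beta subunit, also split: A_44_P442780 rose by 1.53 (SE 0.28, adjusted p = 0.0036 by limma), and A_43_P11905 differed by 0.65 (SE 0.31, adjusted p = 0.0965 by limma). Bounds here set the brighter group against the dimmest signal that counted as well above background on each array of the dimmer group.

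**Figure D4:**
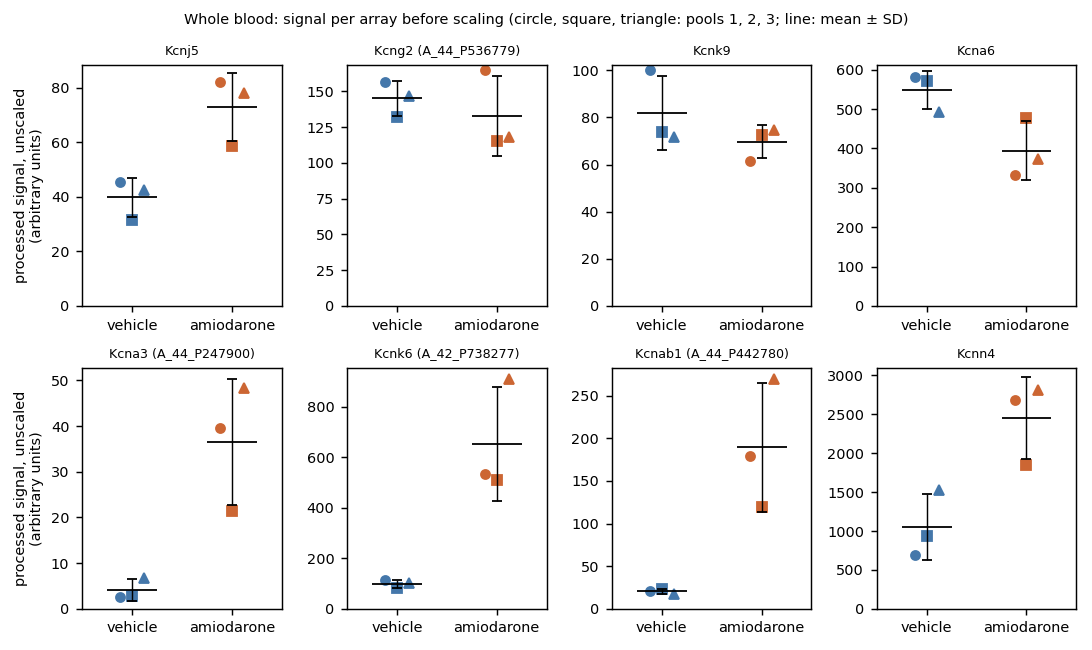
Processed signal before scaling, in arbitrary units from 0, of 8 potassium channel probes in the blood arrays, 1 panel per probe. Points are the 3 pools of each group, and lines with bars are mean ± SD. Kcnk6 (A_42_P738277) runs from 81.3 to 113 in vehicle and from 509 to 910 in amiodarone arrays, while the Kcng2 (A_44_P536779) groups overlap.

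Of the inward rectifiers, Kcnj5 read 0.79, 0.60 and 0.77 in vehicle and -0.09, 0.05 and 0.02 in amiodarone pools. The groups did not overlap, and the scaled difference was -0.72 (SE 0.17, adjusted p = 0.0078 by limma). The unscaled signals were higher with amiodarone, at 45.4, 31.5 and 42.5 in vehicle and 82.3, 58.8 and 78.0 in amiodarone arrays, so the sign turned to 0.88 (adjusted p = 0.0244) without scaling. Kcnj3 differed by -1.13 (SE 0.21, adjusted p = 0.0033 by limma) and by 0.47 (adjusted p = 0.228) without scaling. Kcnj4, a strong inward rectifier, was well above background on all vehicle arrays and on no amiodarone array, which gives at least 4.23-fold lower on the scaled values (adjusted p = 0.0011 by limma). Its unscaled signals were 16.0, 9.66 and 16.8 in vehicle and 9.33, 8.65 and 6.01 in amiodarone arrays. The fitted difference was -0.81 (adjusted p = 0.0448) without scaling and -0.26 (adjusted p = 0.261) with normexp.

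Of the 2-pore channels in blood, Kcnk6 (TWIK-2) had 2 probes called higher, but A_44_P421565 entered the test through the amiodarone group alone. A_42_P738277 read 2.10, 1.96 and 2.02 in vehicle and 2.61, 3.16 and 3.56 in amiodarone pools. All amiodarone pools were higher, by 1.09 (SE 0.26, adjusted p = 0.0091 by limma), and by 0.72 (adjusted p = 0.309) with normexp. The other, A_44_P421565, was well above background on no vehicle array and on all amiodarone arrays (adjusted p = 0.0027 by limma). Its bound stayed under 1, so no fold is given, and with normexp it differed by 0.08 (adjusted p = 0.701). Kcnk5 rose by 0.70 (adjusted p = 0.0315). Kcnk13, well above background on no vehicle array, was at least 1.02-fold higher (adjusted p = 0.0136). Kcnk9 fell by 1.82 (adjusted p = 0.0015), and by 0.70 with normexp (adjusted p = 0.0309). Its unscaled signals overlapped, at 71.5 to 100 in vehicle and 61.7 to 74.9 in amiodarone arrays. These p-values are limma's.

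Among accessory and calcium activated subunits, Kcne1l read -0.15, 1.01 and 0.94 in vehicle and 2.33, 2.03 and 1.10 in amiodarone pools. The pools of each group stayed apart, and the difference was 1.22 (SE 0.42, adjusted p = 0.0351 by limma), 1.75 on the slide with 4 blood arrays and 0.16 on the other. Kcns3 rose by 1.20 (SE 0.35, adjusted p = 0.0197 by limma). Kcnmb1, the smooth muscle subunit of the large conductance channel, had a fitted difference of -1.94 (SE 0.68, adjusted p = 0.0369 by limma), and 2 of 3 amiodarone arrays measured it. It passed for 3 of the 6 pools left out in turn, was -0.34 (adjusted p = 0.521) without scaling and -0.43 (adjusted p = 0.212) with normexp, and its unscaled signals overlapped. Kcnmb4 was measured on amiodarone arrays only, and no fold is given (adjusted p = 0.0095 by limma). Kcnn4, bright on every blood array, differed by -0.33 (SE 0.31, adjusted p = 0.358 by limma). Of 20 partner and regulator genes measured in blood, 14 were called higher and 4 lower, beside the 40.6% and 25.4% of all blood probes given above, on the scaled values.

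The drug effect differed between heart and blood at 11 of the 16 probes measured in both (68.8%), 5 with the heart effect above the blood effect and 6 below. Of all 15120 probes measured in both tissues 49.8% were called in this contrast, 17.8% above and 32.0% below. At an unadjusted p below 0.05 the contrast took 12 of the 16, against 57.8% of all probes. Kcnj5 had the smallest p: its heart effect of 1.10 and blood effect of -0.72 differed by 1.82 (SE 0.21, adjusted p = 0.0002 by limma). It passed whichever of the 12 arrays was left out and with normexp (1.28, adjusted p = 0.0045), and was 0.09 (adjusted p = 0.877) without scaling. Kcne1l lay at the other end, with a fitted difference of -2.58 (SE 0.57, adjusted p = 0.0041 by limma) between -1.36 in heart and 1.22 in blood. It was -0.71 (adjusted p = 0.173) with normexp, and its heart value rests on 1 amiodarone array that measured the probe. At Kcnj3, Kcnn4, Kcnmb4 and Kcnab2 the difference did not pass. Without scaling 11 probes were called, all with the heart effect below the blood effect, against 79.5% of all probes, and with normexp 3 were, all above, against 9.29%.

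**Figure D5:**
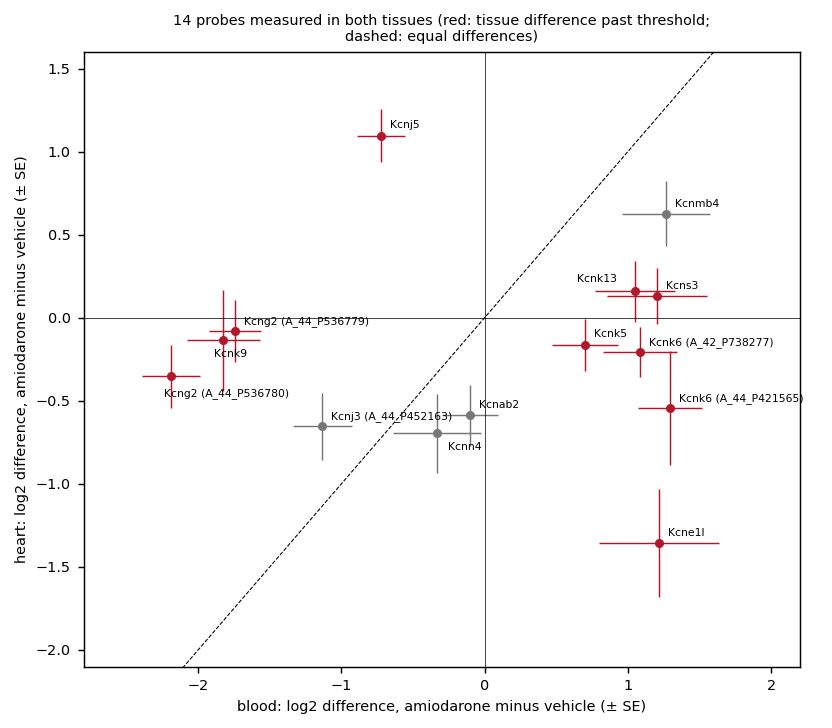
Log2 difference, amiodarone minus vehicle, in heart (vertical) against blood (horizontal) for 14 of the potassium channel probes measured in both tissues, with standard errors as bars. Red points mark the 10 drawn probes whose tissue difference passed the threshold, and the dashed line marks equal differences; Kcnj5 lies at 1.10 in heart and -0.72 in blood, and Kcne1l at -1.36 and 1.22.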

How the data were processed

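The 12 arrays were grouped from the labels. The processed signal is an intensity that Agilent Feature Extraction 9.5.1.1 made for each spot, per the file headers (background subtracted and detrended, with no normalization between arrays); mean and background intensity stand beside it. The authors' deposited values are a normalized intensity on a linear scale, made separately for heart and blood, by a method not given in the sources used here. Positions are rn4.

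The processed signal was put on the log2 scale, minus the log2 of each array's 75th percentile. Outlier spots were dropped, and a probe's spots averaged. Probes that all 3 arrays of either group read as well above background were tested. Each tissue was fitted alone, and both together for the tissue difference, with limma 3.58.1 in R 4.3.3 (data.table, version 1.17.8), two-sided, with Benjamini-Hochberg adjustment over all probes tested. An exact test of 3 against 3 cannot reach p below 0.1. On simulated data the heart fit (20497 probes) recovered 68% of 2-fold and 98% of 4-fold changes, and the blood fit (18099 probes) 16% and 98%. The simulation changed 50 probes per fold size, a smaller share than was called in the data (7.41% in heart and 65.9% in blood). Recovery after Benjamini-Hochberg adjustment depends on that share, so these values do not give the sensitivity of the reported fits.

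Named probes are all those called in heart, the 10 next by p, the brightest probe of each cardiac current gene, the 8 largest called rises and falls in blood, the 5 smallest p per direction between tissues, and genes whose probes disagreed; other probes named were chosen after their values were seen. The members and lists were chosen with earlier results of these data known. Symbols came from RefSeq by accession (92 probes), symbol (13) or synonym (1); promoter sequences are RefSeq's, build GRCr8. Probe sequences are those of the deposited files. The number of arrays limits the precision. Other backgrounds, scalings, filters, probe choices, blocks and left-out arrays were tried as alternatives. Some probes that the rule takes are withheld for evaluation and are counted but not reported here.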

Additional observations from a re-analysis of the deposited data

Results flagged for a closer look

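The drug effect differed between heart and blood, in the limma contrast, at these probes. The heart effect minus the blood effect was 1.82 for Kcnj5, 1.84 for Kcng2 A_44_P536780, 1.66 for Kcng2 A_44_P536779 and 1.69 for Kcnk9. It was -2.58 for Kcne1l, which 1 of 3 amiodarone heart arrays measured, -1.29 for Kcnk6 A_42_P738277, -0.86 for Kcnk5 and -1.07 for Kcns3. Of these 8 probes, Kcnj5 and Kcne1l passed the threshold in each tissue with opposite signs; the other 6 passed in blood and not in heart. Without scaling the arrays the difference was 0.09 for Kcnj5, 0.10 and -0.07 for the Kcng2 probes and -0.05 for Kcnk9, none of them called. With normexp Kcnj5 (1.28), Kcng2 A_44_P536779 (0.81) and Kcnk9 (0.71) were called. The other 5 were not, at -0.03 for Kcng2 A_44_P536780, -0.71 for Kcne1l, -0.93 for Kcnk6, -0.30 for Kcnk5 and -0.37 for Kcns3. Leaving out each of the 12 arrays in turn, Kcnk5 passed in 8 fits and Kcns3 in 5, and the other 6 probes in all 12.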

How the results depend on the processing

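Results named in heart and blood mostly kept direction and side of the threshold: 524 of 583 heart and 331 of 387 blood values over the alternatives did. Most of these heart values belong to probes that were not called, so the total says little about the called ones. With 1 heart array left out, Kcnj5 passed in 6 of 6 fits, Kcnj14 in 3, Kcnk2 in 2 and Kcne1l in 2. In heart the count of 4 called probes became 2 without scaling, 0 without a filter on dim probes (13 at an unadjusted p below 0.05, of 106 by limma, where 0.81% of all probes were called), 0 on slide 1 only (11 unadjusted by limma) and 2 with all 12 arrays in 1 fit; leaving out 1 array gave 1 to 5. In blood the count of 19 became 2 with normexp and 85 of 106 without the filter, where 68.9% of all probes were called; leaving out 1 array gave 16 to 19. For the tissue difference the count of 11 became 3 with normexp, 66 of 106 without the filter (52.3% of all probes) and 7 on slide 1 only; leaving out 1 array gave 8 to 12. The labels do not say whether replicate numbers pair the samples, and the main fits did not treat them as pairs. Deviations of same-numbered heart arrays from their group means correlated at -0.17, -0.24 and 0.32, and of blood arrays at 0.07, 0.15 and 0.29. With 3 arrays per group these values cannot settle the pairing. With the replicate block 2 heart probes were called (Kcnj5 and Kcnk2), 19 in blood and 11 for the difference.

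In blood 3 differences changed sign without scaling, to 0.88 for Kcnj5, 0.47 for Kcnj3 and 1.27 for Kcnn4. Heart differences near 0 changed sign. Array median scaling gave 0.018 for Abcc8, 0.076 for Abcc9, 0.0070 for Kcnh2, 0.0047 for Kcng2 A_44_P536774 and 0.013 for Kcng2 A_44_P536779, and normexp gave 0.0048 for Kcnk9. Kcnj11 was -0.0042 with quantile scaling, -0.033 without scaling and -8.3e-05 on slide 1 only, and Kcnq1 was -0.12 without scaling and -0.15 on slide 1 only. Leaving out 1 array gave -0.23 to 0.19 for Abcc8, -0.13 to 0.076 for Abcc9, -0.29 to 0.14 for Kcnh2, -0.0023 to 0.24 for Kcnj11, -0.17 to 0.017 and -0.22 to 0.078 for those Kcng2 probes, -0.35 to 0.12 for Kcnk9 and -0.27 to 0.47 for Kcnq1. The cause of these shifts was not tested. Fits on slide 1 only had fewer arrays, and fits without the filter took in dim probes.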
